A study of Mus musculus with 12 samples.

Results

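The 10 genes described here are targets of NRF2, the transcription factor encoded by Nfe2l2 that switches on antioxidant and detoxifying enzymes. They were chosen by gene symbol and make up 10 of the 57180 genes in the deposited table. All 10 passed the filter on low values, which kept 14426 genes that reached 1 TPM in 3 or more libraries. Slc7a11 did so only through libraries of the Snail1 knockdown, described below. TPM is a transcript level already divided by gene length and by the library's total, so that levels of different genes can be set side by side. The RNA came from HC11, an established mouse mammary epithelial cell line, and was read by stranded mRNA sequencing. The study asked what Snail1, a transcription factor encoded by Snai1, does while these cells migrate as a group. Its 12 libraries form 4 groups of 3: Snail1 knockdown after 36 h of migration (libraries 1, 2 and 3), control after 36 h (libraries 1, 3 and 4), Snail1 knockdown at 0 h (libraries 1, 2 and 3) and control at 0 h (libraries 1, 2 and 3). The control is labelled scr in the titles and WT under genotype, the knockdown Snail1 KD, and the table heads its columns sh_snail1. All 4 groups were sorted by flow cytometry, kept overnight in RPMI medium with serum, EGF and insulin so that they formed aggregates, and then placed in the migration assay. Neither a clonal origin of the knockdown line nor separate cultures for the libraries are stated in the labels, so the p-values cover the spread between samples, which may be technical. Control 36 h library 4 carries an unexplained "mix" in its title. It was kept in its group, and if it were a pool, that group would hold fewer than 3 independent samples.

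In resting cells the adaptor Keap1 holds NRF2 for ubiquitination by a Cul3 and Rbx1 ligase, and NRF2 is degraded. Oxidants or electrophiles that modify Keap1 let NRF2 enter the nucleus, pair with a small Maf protein and bind antioxidant response elements, while Bach1 competes for the same elements. The glutathione supply arm holds Slc7a11, the cystine importer of system xc-, and Gclc and Gclm, the catalytic and modifier subunits of glutamate-cysteine ligase, which makes the first bond of glutathione. The thioredoxin arm holds Txnrd1, the cytosolic thioredoxin reductase, Prdx1, an abundant peroxidase, and Srxn1, the sulfiredoxin that repairs peroxiredoxins oxidised too far. Pgd, 6-phosphogluconate dehydrogenase of the pentose phosphate pathway, makes NADPH, and Nqo1 spends it to reduce quinones. Hmox1 opens the heme ring, and Sqstm1 (p62) is an autophagy receptor that also binds Keap1.

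The antioxidant response element has the core TGACNNNGC, where N is any base. RefSeq start sites on mouse build GRCm38.p6 were at hand for 8 of the 10 genes, all but Gclc and Hmox1, and gave 11 windows from 250 bases before to 50 after a start. The core, searched on both strands, stood in 5 of these 11 windows (45.5%) and in 12.4% of the 32851 windows of all genes. It lay at position -134 from the start in Gclm, -133 in Prdx1, -92 in 1 of the 3 windows of Txnrd1, 29 in Srxn1 and 4 in 1 of the 2 windows of Pgd. None of these letters stood in the windows of Slc7a11, Nqo1 and Sqstm1, and sequence further out was not searched. The AP-1 site TGANTCA, with N as C or G, was counted because it can overlap the core, and it stood in 2 of the 11 windows (18.2%) against 5.20% of all windows. Those were Srxn1 and Prdx1, and in Prdx1 the core overlapped an AP-1 site. The 250 bases before the start of Gclm and Slc7a11, both higher in knockdown at 0 h, are shown 5′ to 3′ along the gene, with the core in capitals where it was found. In Gclm, Txnrd1 and Prdx1 it reads on the opposite strand. The short windows show the core of Txnrd1 and Prdx1, then the AP-1 sites in capitals of Srxn1 and Prdx1.
Gclm, chr3:122245307-122245556, plus strand: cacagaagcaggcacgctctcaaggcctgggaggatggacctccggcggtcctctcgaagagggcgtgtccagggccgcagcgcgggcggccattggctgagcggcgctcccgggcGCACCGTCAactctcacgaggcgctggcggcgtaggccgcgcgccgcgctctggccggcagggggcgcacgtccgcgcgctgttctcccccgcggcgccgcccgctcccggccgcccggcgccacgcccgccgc
Slc7a11, chr3:50443614-50443863, minus strand: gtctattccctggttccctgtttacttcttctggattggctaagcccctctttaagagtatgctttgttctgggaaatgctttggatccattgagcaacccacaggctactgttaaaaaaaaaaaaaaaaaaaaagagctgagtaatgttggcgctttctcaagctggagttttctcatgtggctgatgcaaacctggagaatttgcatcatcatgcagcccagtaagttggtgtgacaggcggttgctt
Txnrd1 core, chr10:82859104-82859132, plus strand: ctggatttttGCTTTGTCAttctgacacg
Prdx1 core, chr4:116685456-116685484, plus strand: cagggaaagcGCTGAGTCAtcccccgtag
Srxn1 AP-1 site at -102, chr2:152105412-152105438, plus strand: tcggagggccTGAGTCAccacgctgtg
Srxn1 AP-1 site at -45, chr2:152105469-152105495, plus strand: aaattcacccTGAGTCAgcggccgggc
Prdx1 AP-1 site at -237, chr4:116685352-116685378, plus strand: aacgaggaaaTGACTCAaagggcagtg

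Snai1 averaged 0.407 ± 0.192 TPM in knockdown and 3.13 ± 0.688 TPM in control at 36 h (SD, n = 3 each, 13.0% of control), and 0.617 ± 0.158 TPM in knockdown and 1.85 ± 0.601 TPM in control at 0 h (33.4%). The groups did not overlap at either time, and an exact two-sided permutation test gave p = 0.1, its lowest possible value with 3 libraries a group. Knockdown 0 h library 2 stood apart, with 14% of its TPM from mitochondrially encoded genes against 1.45% to 6.15% in the other 11 libraries, and 12% from ribosomal protein genes against 3.72% to 5.62%. Median-of-ratios scaling gave it a factor of 0.507, the others 0.902 to 1.22. This scaling divides each library by such a factor so that the typical gene keeps its level, and values scaled in this way or without that library are given beside the calls of the 10 genes that they change. All 6 mammary epithelial markers were present, at a summed 19472 to 25456 TPM in knockdown and 15897 to 18764 TPM in control at 36 h, and 3325 to 10276 TPM in knockdown and 10063 to 10278 TPM in control at 0 h. Most of that sum was Krt14, at 18732 TPM on average in knockdown and 13388 TPM in control at 36 h, while Epcam averaged 489 TPM in knockdown and 679 TPM in control, Cdh1 229 TPM in knockdown and 283 TPM in control, and Krt18 38.1 TPM in knockdown and 43.5 TPM in control at that time. Krt5 averaged 3207 TPM in knockdown and 2821 TPM in control at 36 h, and Krt8 216 TPM in knockdown and 204 TPM in control. At 0 h all 6 means were lower in knockdown, with Krt14 at 5830 TPM in knockdown and 7167 TPM in control. Epcam was then at 605 TPM in knockdown and 1124 TPM in control. None of the 6 was called between knockdown and control. Over time Krt5 was called higher in control (1.15 on the log2 scale, limma adjusted p = 0.0231) and in knockdown (1.68, adjusted p = 0.00108). Krt14 was called higher over time in knockdown (1.88, limma adjusted p = 0.0412). Of 25 alternatives, 13 kept the Krt5 call in control, 23 that in knockdown and 9 the Krt14 call. Of the immune markers 2 of 6 reached 1 TPM in any library, of fibroblast markers 4 of 6, and of endothelial and adipocyte markers 1 of 3 each. Summed fibroblast markers were at 7.82 to 13.5 TPM in knockdown and 11.9 to 23.2 TPM in control at 36 h, and 3.76 to 15.5 TPM in knockdown and 14.8 to 17.0 TPM in control at 0 h. Among them Col1a1 was called lower in knockdown at 0 h (-1.01, limma adjusted p = 0.0398). That call was lost with median-of-ratios scaling or without knockdown 0 h library 2. Summed immune markers were at 2.14 to 2.52 TPM in knockdown and 3.27 to 3.85 TPM in control at 36 h, and 6.64 to 11 TPM in knockdown and 9.93 to 14.7 TPM in control at 0 h. Cd68 was called lower at 36 h than at 0 h in control (-1.68, limma adjusted p = 0.0142) and in knockdown (-1.46, adjusted p = 0.0158). Adipoq was at 0 in all 12 libraries. The part of these markers and of the mitochondrial share in the results below was not tested. In such bulk samples fewer cells of a kind and less RNA per cell cannot be told apart.

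Set side by side, the 10 genes spanned more than 3 orders of magnitude. In 36 h control libraries Prdx1 averaged 2348 ± 185 TPM and Sqstm1 924 ± 90.4 TPM, and Slc7a11 averaged 0.560 ± 0.140 TPM. Between them lay Pgd (148 ± 15.3 TPM), Gclm (135 ± 9.79 TPM), Hmox1 (125 ± 9.51 TPM), Nqo1 (99.8 ± 1.12 TPM), Srxn1 (67.8 ± 10.9 TPM), Txnrd1 (50.1 ± 13.6 TPM) and Gclc (33.7 ± 8.38 TPM, SD, n = 3 for each gene). The neighbours Pgd and Gclm, Gclm and Hmox1, Srxn1 and Txnrd1, and Txnrd1 and Gclc overlapped in their ranges. Prdx1 was also the most abundant of the 10 in the other 3 groups, and Slc7a11 the least.

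**Figure D1:**
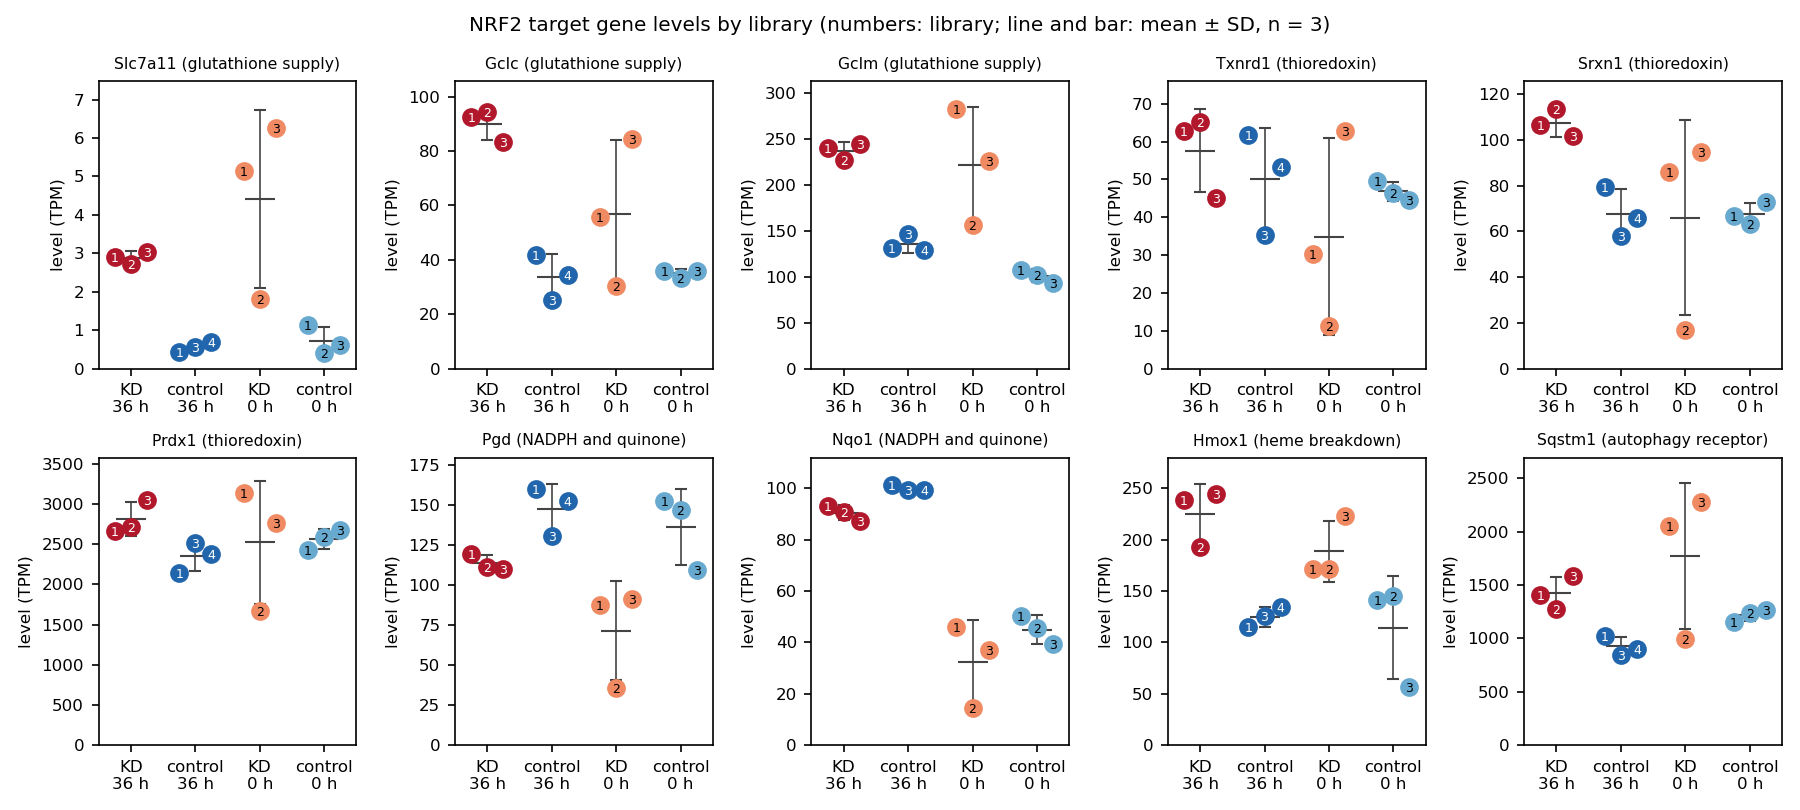
Level in TPM of the 10 genes in each library, by group, with knockdown (KD) left of control at each time. Circles are libraries and carry their number, and the line and bar are mean ± SD (n = 3). Slc7a11, Gclc and Gclm lie above control in all 36 h knockdown libraries, and knockdown 0 h library 2 is the lowest of its group for each gene.

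At 36 h all 3 glutathione supply genes lay above control in every knockdown library, and Gclc and Slc7a11 had the highest fold changes of the 10. Gclc was called higher, at an adjusted p under 0.05 in limma, and was the only member called, 1 of 10 against 2.53% of all genes tested (0.894% called higher and 1.64% lower). Without adjustment 5 of the 10 had a limma p under 0.05, as did 2345 of the 14426 genes tested. The libraries of the groups did not overlap for 9 members, 7 of them higher (Slc7a11, Gclc, Gclm, Srxn1, Prdx1, Hmox1 and Sqstm1) and 2 lower in knockdown (Pgd and Nqo1). Over all genes tested 14.8% were higher and 22.0% lower without overlap. After median-of-ratios scaling Prdx1 and Nqo1 overlapped as well, which left 6 higher and 1 lower. The share of all genes without overlap was not counted on scaled TPM. The median log2 fold change was 0.64 over the 10 genes and -0.09 over all genes. With median-of-ratios scaling 4 of the 10 were called, Slc7a11, Gclc, Gclm and Sqstm1, all higher, against 5.94% of all genes (2.50% higher and 3.44% lower). Without knockdown 0 h library 2, 5 were called, those 4 and Srxn1, against 18.6% (6.88% higher and 11.7% lower).

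At 0 h knockdown libraries had more of the cystine importer Slc7a11 and of Gclm and less of the NADPH producer Pgd, while Gclc overlapped between the groups. Slc7a11 and Gclm were called higher and Pgd lower, 3 of 10 against 17.7% of all genes tested, of which 3.10% were called higher and 14.6% lower. Unadjusted limma p-values were under 0.05 for 4 of the 10 and for 5381 of the 14426 genes tested. Groups did not overlap for 3 higher members (Slc7a11, Gclm and Hmox1) and 1 lower member (Pgd), against 7.24% and 30.7% of all genes. After median-of-ratios scaling Gclc, Prdx1 and Sqstm1 were also higher without overlap, which made 6 higher and 1 lower. The shares of all genes above are for unscaled TPM, and none was counted on scaled TPM. The median log2 fold change was 0.19 over the 10 genes and -0.41 over all genes. With median-of-ratios scaling these medians were 0.71 and 0.02, and 6 of the 10 were called, namely Slc7a11, Gclc, Gclm, Hmox1 and Sqstm1 higher and Pgd lower, against 18.8% of all genes (8.66% higher and 10.2% lower). Without knockdown 0 h library 2, 6 were called as well, Slc7a11, Gclc, Gclm, Srxn1 and Sqstm1 higher and Pgd lower, against 23.2% (6.74% higher and 16.5% lower).

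**Figure D2:**
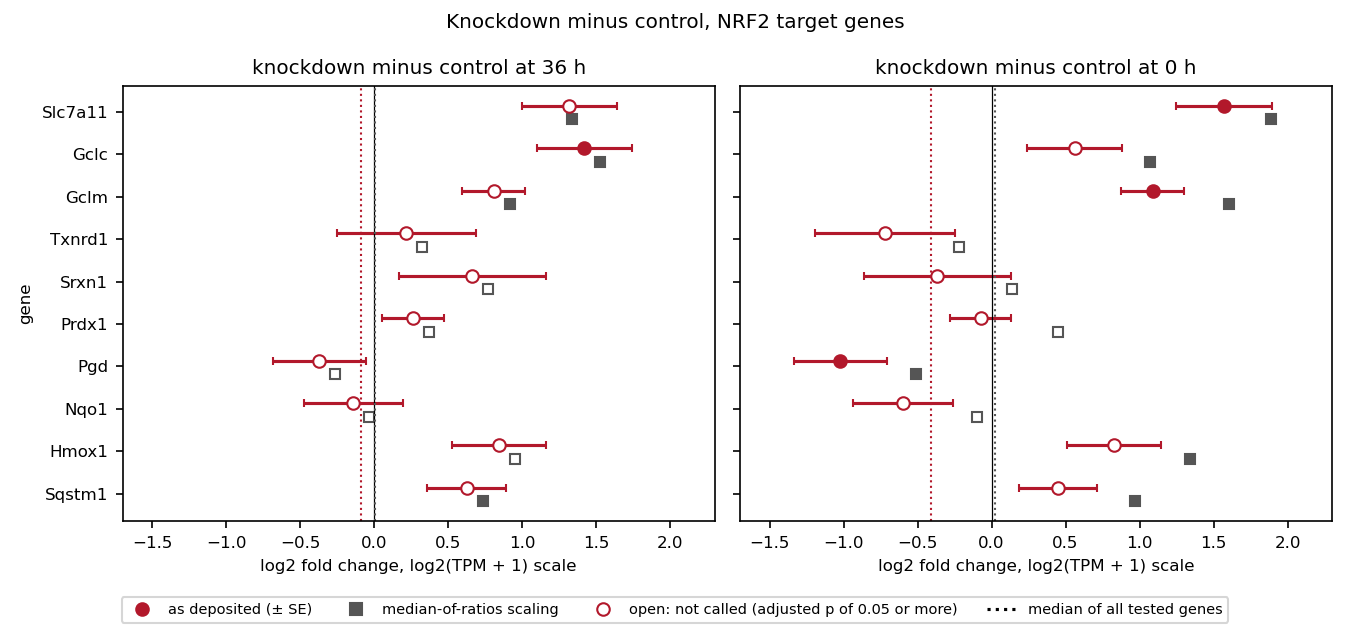
Log2 fold change, knockdown minus control, of the 10 genes at 36 h (left) and 0 h (right) on the log2(TPM + 1) scale. Circles show the deposited TPM ± SE, squares the values after median-of-ratios scaling, filled symbols an adjusted p under 0.05, and dotted lines the median of all tested genes, which the scaling shifts from -0.41 to 0.02 at 0 h. Slc7a11, Gclc and Gclm lie right of 0 in both panels under both scalings, and Pgd lies left.

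Slc7a11 brings in the cystine from which the cysteine of glutathione is made. It was at 2.90, 2.71 and 3.04 TPM in the 36 h knockdown libraries, against 0.42, 0.56 and 0.70 TPM in the 36 h control libraries. Every knockdown library lay above every control library, and the ratio of the means, 2.88 ± 0.166 over 0.560 ± 0.140 TPM, was 5.15. At 0 h it was at 5.15, 1.81 and 6.27 TPM in knockdown libraries, against 1.13, 0.40 and 0.61 TPM in control libraries. Library 2 was the lowest knockdown library but still above all 3 controls, and the ratio of means, 4.41 ± 2.32 over 0.713 ± 0.376 TPM, was 6.18. Among control libraries only 0 h library 1 reached 1 TPM, so this gene passed the filter through the groups where it is high. Adding 1 TPM before the log makes the change of so scarce a transcript look smaller. On that scale the 0 h fold change was 1.57 ± 0.323 (SE, adjusted p = 0.0108, limma), and the 36 h fold change was 1.32 ± 0.323 (adjusted p = 0.0574, not called). Adding 0.1 in place of 1 TPM gave 2.2 at 36 h, not called (adjusted p = 0.0516), and 2.40 at 0 h, still called (adjusted p = 0.0116). The 0 h call held in 23 of 24 alternatives and was lost when only the 0 h groups were fitted (adjusted p = 0.119). The 36 h value became a call in 8 of 24, among them median-of-ratios scaling (1.33, adjusted p = 0.00923), the fit of the 36 h groups alone (adjusted p = 0.00598) and the fits without knockdown 0 h library 2 (adjusted p = 0.00174) or library 3 (adjusted p = 0.0354).

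Gclc carries the active site of glutamate-cysteine ligase. Its level was 92.65, 94.30 and 83.32 TPM in the 36 h knockdown libraries, against 41.73, 25.01 and 34.32 TPM in the 36 h control libraries. No library overlapped, and the means were 90.1 ± 5.92 and 33.7 ± 8.38 TPM, a ratio of 2.67. The log2 fold change was 1.42 ± 0.321 (SE, adjusted p = 0.0461, limma). Gclc at 0 h was at 55.72, 30.19 and 84.38 TPM in knockdown libraries, against 35.97, 33.42 and 35.90 TPM in control libraries. Knockdown library 2 lay below the controls and the other two above them, so the groups overlapped, with a log2 fold change of 0.56 ± 0.321 (adjusted p = 0.214). Median-of-ratios scaling brought that library to 59.6 TPM and the 0 h fold change to 1.07 (adjusted p = 0.00127), and leaving the library out gave 0.95 (adjusted p = 0.0107). The 36 h call was lost in 13 of 25 alternatives. Among them were 10 of the 12 fits without a library, all but those without knockdown 0 h library 2 or 3, with values of 1.23 to 1.59 and adjusted p of 0.0570 to 0.160.

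Gclm, the modifier subunit, lowers the amount of glutamate the ligase needs. It was at 239.89, 226.87 and 245.00 TPM in the 36 h knockdown libraries, against 130.85, 146.54 and 128.56 TPM in the 36 h control libraries. The groups were far apart for their spread (237 ± 9.35 and 135 ± 9.79 TPM, ratio 1.75), and limma gave 0.81 ± 0.211 on the log2 scale (SE, adjusted p = 0.0741, not called). Gclm at 0 h was at 282.85, 156.06 and 226.36 TPM in knockdown libraries, against 107.38, 101.86 and 93.62 TPM in control libraries. Again no library overlapped, and the ratio of means, 222 ± 63.5 over 101 ± 6.92 TPM, was 2.2. The 0 h log2 fold change was 1.09 ± 0.211 (adjusted p = 0.00845), and the call held in 24 of 25 alternatives, the exception being the 0 h groups fitted alone (adjusted p = 0.126). The 36 h value became a call in 8 of 25, with median-of-ratios scaling (0.91, adjusted p = 0.0154) and without knockdown 0 h library 1 (adjusted p = 0.0478) or library 2 (adjusted p = 7.53e-04) among them.

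The thioredoxin arm had no called gene at either time. Txnrd1 was at 62.82, 65.08 and 45.02 TPM in the 36 h knockdown libraries and 61.73, 35.20 and 53.40 TPM in the 36 h control libraries. These ranges lie on top of each other, and the log2 fold change was 0.22 (adjusted p = 0.902, limma), or -0.01 without control 36 h library 3. Txnrd1 at 0 h was at 30.42, 11.23 and 62.77 TPM in knockdown libraries and 49.66, 46.40 and 44.55 TPM in control libraries. Knockdown libraries 1 and 2 were below all controls and library 3 above them, giving -0.72 ± 0.471 (adjusted p = 0.271). Leaving out library 3 made that -1.29 (adjusted p = 0.0227), and leaving out library 2 made it -0.10 (adjusted p = 0.852).

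Srxn1 was at 106.39, 113.68 and 101.70 TPM in the 36 h knockdown libraries and 79.56, 58.14 and 65.84 TPM in the 36 h control libraries. All knockdown libraries were above all controls (ratio of means 1.58), but the log2 fold change of 0.66 ± 0.498 did not pass (adjusted p = 0.602, limma). That SE was estimated over all 4 groups, so it includes the spread of the 0 h libraries. The 36 h value passed, at the same fold change, without knockdown 0 h library 2 (adjusted p = 0.00455) and with the 36 h groups fitted alone (adjusted p = 0.0201). At 0 h it was at 86.22, 16.92 and 94.87 TPM in knockdown libraries and 66.86, 63.05 and 72.84 TPM in control libraries. Library 2 was lowest and the other knockdown libraries highest, and the sign differed with library 2, with -0.37 (adjusted p = 0.594) in all libraries, 0.42 without it (adjusted p = 0.0459) and 0.14 scaled by median of ratios (adjusted p = 0.768). Prdx1 was at 2669.57, 2713.86 and 3054.18 TPM in the 36 h knockdown libraries and 2148.02, 2513.24 and 2382.40 TPM in the 36 h control libraries. The groups did not overlap, by a ratio of 1.2 and a log2 fold change of 0.26 (adjusted p = 0.630). At 0 h its levels, 3139.07, 1663.27 and 2767.32 TPM in knockdown libraries and 2430.03, 2588.15 and 2675.41 TPM in control libraries, overlapped, with a log2 fold change of -0.07 (adjusted p = 0.802) that was 0.20 without library 2 and 0.45 with median-of-ratios scaling. The related row Prdx1-ps, a pseudogene, is listed at 0 in every library, and how reads shared between such copies were counted is not given in the sources used here.

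The NADPH and quinone genes, Pgd and Nqo1, had fold changes below 0 at both times, and Pgd at 0 h was called. Pgd was at 119.34, 111.39 and 109.75 TPM in the 36 h knockdown libraries, against 159.87, 130.43 and 152.20 TPM in the 36 h control libraries. All 3 knockdown libraries were the lower ones, but the log2 fold change of -0.37 ± 0.315 was not called (ratio 0.769, adjusted p = 0.659, limma). At 0 h it was at 87.46, 35.61 and 91.01 TPM in knockdown libraries, against 152.61, 146.76 and 109.01 TPM in control libraries. No library overlapped, the ratio of means was 0.524, and the log2 fold change was -1.02 ± 0.315 (adjusted p = 0.0457). This call was lost in 14 of 25 alternatives, among them each fit without a control library of either time or a 36 h knockdown library (adjusted p of 0.0589 to 0.144). Median-of-ratios scaling reduced it to -0.51 (adjusted p = 0.0467), and leaving out knockdown 0 h library 2 to -0.59 (adjusted p = 0.0165).

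Nqo1 was at 93.25, 90.75 and 87.27 TPM in the 36 h knockdown libraries, against 101.09, 99.11 and 99.18 TPM in the 36 h control libraries. The deposited levels did not overlap but lay close, at a ratio of 0.906 and a log2 fold change of -0.14 ± 0.335 (adjusted p = 0.912, limma). At 0 h it was at 46.10, 14.43 and 36.93 TPM in knockdown libraries and 50.25, 45.45 and 39.15 TPM in control libraries, which overlapped, with -0.60 ± 0.335 (adjusted p = 0.207), or -0.11 without library 2. Nqo1 is often read as a marker of NRF2 activity. It was not called between knockdown and control at either time, and NRF2 activity itself was not tested.

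Hmox1 was at 238.98, 192.69 and 244.57 TPM in the 36 h knockdown libraries, against 115.00, 125.53 and 133.99 TPM in the 36 h control libraries. No library overlapped (ratio 1.81), and the log2 fold change was 0.84 ± 0.317 (adjusted p = 0.205, limma). Hmox1 at 0 h was at 171.92, 171.19 and 223.24 TPM in knockdown libraries, against 141.06, 145.34 and 56.57 TPM in control libraries. Control library 3 was far below its group, the groups did not overlap (ratio 1.65), and the log2 fold change was 0.83 ± 0.317 (adjusted p = 0.0879), or 1.34 scaled by median of ratios (adjusted p = 0.0223). Without control 0 h library 3 it was 0.39 (adjusted p = 0.247). Sqstm1 was at 1410.14, 1278.62 and 1585.02 TPM in the 36 h knockdown libraries, against 1022.22, 844.91 and 903.38 TPM in the 36 h control libraries. These groups did not overlap (ratio 1.54), and the log2 fold change of 0.62 ± 0.264 was not called (adjusted p = 0.267), but it was with median-of-ratios scaling (0.73, adjusted p = 0.0346) or without knockdown 0 h library 2 (adjusted p = 0.00282). At 0 h Sqstm1 was at 2048.31, 989.31 and 2273.05 TPM in knockdown libraries and 1155.92, 1234.69 and 1265.77 TPM in control libraries. Library 2 lay below the controls and the other knockdown libraries well above, and the log2 fold change of 0.45 (adjusted p = 0.226) was 0.82 without that library (adjusted p = 9.42e-04) and 0.97 scaled by median of ratios (adjusted p = 0.00485).

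The 3 arms can be set against each other inside a library, where a scaling factor cancels for a ratio of TPM. Between arms, Gclc over Pgd was 0.794 ± 0.0463 in knockdown and 0.226 ± 0.0346 in control at 36 h, and 0.804 ± 0.150 in knockdown and 0.264 ± 0.0565 in control at 0 h (SD, n = 3 each). Gclm over Nqo1 was 2.63 ± 0.161 in knockdown and 1.36 ± 0.106 in control at 36 h, and 7.69 ± 2.70 in knockdown and 2.26 ± 0.128 in control at 0 h. In all 4 of these comparisons every knockdown library was above every control library, knockdown 0 h library 2 included. Within the glutathione arm, Slc7a11 over Gclm was 0.0122 ± 0.00024 in knockdown and 0.00416 ± 0.00116 in control at 36 h, and 0.0192 ± 0.00809 in knockdown and 0.00699 ± 0.00332 in control at 0 h, also without overlap. Gclc over Gclm, the balance of the ligase subunits, was 0.381 ± 0.0381 in knockdown and 0.252 ± 0.0752 in control at 36 h without overlap, but 0.254 ± 0.103 in knockdown and 0.349 ± 0.0302 in control at 0 h with overlap. Within the thioredoxin arm, Srxn1 over Prdx1 and Txnrd1 over Prdx1 overlapped between knockdown and control at both times. The 6 ratios at 2 times made 12 comparisons, chosen with earlier results known. An exact two-sided permutation test of the log2 ratio gave 0.1, its smallest p, in the 7 without overlap (adjusted p = 0.171 over the 12) and 0.2 to 1.0 in the other 5.

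**Figure D3:**
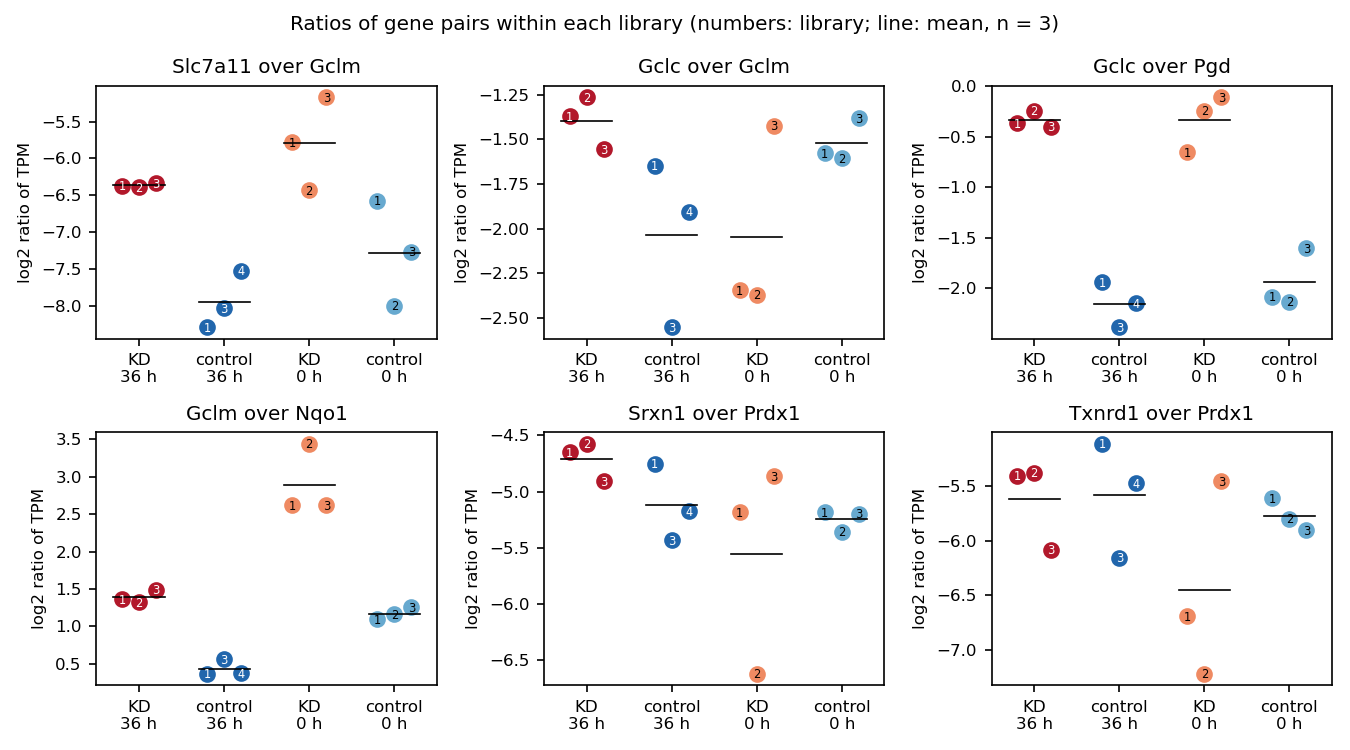
Log2 ratio of the TPM of gene pairs within each library, by group, with knockdown (KD) left of control at each time; circles carry the library number and the line is the mean (n = 3). Slc7a11 over Gclm, Gclc over Pgd and Gclm over Nqo1 are higher in knockdown than in control without overlap at both times, and the thioredoxin ratios overlap.

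Averaged as log2(TPM + 1) over each arm, the glutathione supply genes stood nearer the thioredoxin genes in knockdown. The difference glutathione minus thioredoxin was -2.67 to -2.48 in knockdown and -3.47 to -3.27 in control at 36 h, and -2.30 to -1.58 in knockdown and -3.55 to -3.31 in control at 0 h. Against Pgd and Nqo1 it was -1.26 to -1.18 in knockdown and -2.68 to -2.64 in control at 36 h, and -0.48 to 0.01 in knockdown and -2.28 to -1.90 in control at 0 h. The median log2 fold change at 36 h was 1.32 in the glutathione arm, 0.26 in the thioredoxin arm and -0.26 over Pgd and Nqo1, and at 0 h it was 1.09, -0.37 and -0.81. With median-of-ratios scaling the order was the same at both times, with 1.33, 0.37 and -0.15 at 36 h and 1.61, 0.14 and -0.30 at 0 h. The comparisons of arms are descriptions, with no test.

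Over the 36 h of migration Nqo1 was the member that changed most. In knockdown it averaged 90.4 ± 3.0 TPM at 36 h and 32.5 ± 16.3 TPM at 0 h, a ratio of 2.78 and 1.60 ± 0.335 on the log2 scale (SE, limma adjusted p = 0.0490). It was the only member called there, 1 of 10 against 1.12% of all genes tested (0.998% called higher). In control it averaged 99.8 ± 1.12 TPM at 36 h and 45.0 ± 5.57 TPM at 0 h, a ratio of 2.22 and 1.14 ± 0.335 on the log2 scale, not called (adjusted p = 0.350). No 36 h library of either kind overlapped with its 0 h libraries. Fitted with median-of-ratios scaling Nqo1 was called in both, at 1.21 in knockdown (adjusted p = 0.0116) and 1.15 in control (adjusted p = 0.0221). Without knockdown 0 h library 2 it was 1.11 in knockdown (adjusted p = 0.00114) and 1.14 in control (adjusted p = 7.29e-04). The knockdown call was lost in 15 of 25 alternatives, among them the fit of the knockdown groups alone (adjusted p = 0.568) and the 9 fits without a control library of either time or a 36 h knockdown library (adjusted p of 0.0842 to 0.190).

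Control libraries had no called member over time, 0 of 10 against 0.360% of all genes tested (52 genes, 0.250% higher and 0.111% lower). Unadjusted limma p-values were under 0.05 for 1 member and 803 genes. Gclm was higher at 36 h than at 0 h without overlap (135 ± 9.79 TPM at 36 h and 101 ± 6.92 TPM at 0 h, log2 fold change 0.42, adjusted p = 1), as was Nqo1, and Sqstm1 was lower (924 ± 90.4 TPM at 36 h and 1219 ± 56.6 TPM at 0 h, -0.40, adjusted p = 1), against 9.55% and 12.3% of all genes. In knockdown Srxn1 (107 ± 6.04 TPM at 36 h and 66.0 ± 42.7 TPM at 0 h, 1.03, adjusted p = 0.317), Pgd (113 ± 5.13 TPM at 36 h and 71.4 ± 31.0 TPM at 0 h, 0.78, adjusted p = 0.277) and Nqo1 were higher at 36 h without overlap, against 15.0% of all genes, and none was lower, against 3.91%. After median-of-ratios scaling 4 were higher (those 3 and Gclc) and 2 lower (Slc7a11 and Sqstm1) without overlap, with no share of all genes counted. Leaving out knockdown 0 h library 2 reduced the Srxn1 value to 0.24 and the Pgd value to 0.34. The median log2 fold change of all genes over time was -0.01 in control and 0.33 in knockdown.

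Whether the change over 36 h differed between knockdown and control was tested as an interaction. It was called for 0 of the 10 members and 0% of the 14426 genes, with member adjusted p of 0.595 to 0.987 in limma. At an unadjusted p under 0.05 there were 766 genes and none of the 10. Median-of-ratios scaling called 1 gene and no member. Thus a gene called at 36 h but not at 0 h, such as Gclc, is not shown to respond differently at the 2 times.

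The genes of each list below stand beside 2.53% of all genes called at 36 h and 17.7% called at 0 h. Among 11 regulators of NRF2, 0 were called at 36 h, and at 0 h Rbx1 was called higher and Nfe2l1 lower. Nfe2l2 itself averaged 171 ± 12.2 TPM in knockdown and 111 ± 7.82 TPM in control at 36 h, with 162 to 185 TPM in knockdown libraries and 103 to 118 TPM in control libraries. These groups did not overlap, and the log2 fold change of 0.62 was not called (adjusted p = 0.287, limma). It was called in 6 of 25 alternatives, among them median-of-ratios scaling (0.73, adjusted p = 0.0134) and the fit without knockdown 0 h library 2 (adjusted p = 0.00411). At 0 h Nfe2l2 averaged 144 ± 54.7 TPM in knockdown and 120 ± 17.1 TPM in control, with 0.19 (adjusted p = 0.613), or 0.71 with that scaling (adjusted p = 0.00708) and 0.56 without that library (adjusted p = 0.00952). Keap1 averaged 65.8 ± 7.22 TPM in knockdown and 53.7 ± 16.3 TPM in control at 36 h, and 49.7 ± 17.1 TPM in knockdown and 58.8 ± 4.6 TPM in control at 0 h, not called at either. Bach1 was low, at 3.18 ± 0.886 TPM in knockdown and 3.92 ± 0.534 TPM in control at 36 h and 4.87 ± 2.28 TPM in knockdown and 4.01 ± 1.70 TPM in control at 0 h, and not called. Rbx1, the RING subunit of the ligase, averaged 738 ± 118 TPM in knockdown and 487 ± 12.3 TPM in control at 0 h (0.59, adjusted p = 0.0264), a call that ended without any 1 control 0 h library. Nfe2l1, a relative of NRF2 that drives proteasome genes, averaged 53.8 ± 27.1 TPM in knockdown and 120 ± 6.16 TPM in control at 0 h (-1.24, adjusted p = 0.0367), and the call held in only 9 of 25 alternatives. It was lost with median-of-ratios scaling (-0.73, adjusted p = 0.0670) and without knockdown 0 h library 1 or 2 (adjusted p = 0.0693 without library 2), any 1 control 0 h library, knockdown 36 h library 1 or 2, or control 36 h library 4.

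Of 13 other glutathione genes tested, Gpx2 was called higher at both times and none lower. Gpx2, the epithelial glutathione peroxidase, averaged 1924 ± 62.0 TPM in knockdown and 849 ± 18.1 TPM in control at 36 h (1.18, adjusted p = 0.00446, limma), and 1335 ± 176 TPM in knockdown and 796 ± 31.4 TPM in control at 0 h (0.74, adjusted p = 0.00764). Both calls held in 23 of 25 alternatives. The 36 h call was lost with the replicate block, alone and scaled, and the 0 h call with quantile normalization and with only the 0 h groups fitted. Gpx1, the ubiquitous glutathione peroxidase, was called over time in knockdown, with 3202 ± 157 TPM at 36 h and 1428 ± 438 TPM at 0 h (1.22, adjusted p = 0.0184), but not with median-of-ratios scaling (0.81, adjusted p = 0.0834) or without any 1 knockdown 36 h library. Of 12 other thioredoxin genes, Prdx3, the mitochondrial peroxiredoxin, was called lower at 0 h and none higher. With median-of-ratios scaling 4 of the 12 were called higher and 1 lower at 0 h, against 8.66% and 10.2% of all genes. At 36 h 1 was then called each way. Of the other glutathione genes 2 were called higher at each time with that scaling and none lower. Median log2 fold changes at 0 h were 0.13 for the thioredoxin list and -0.45 for the glutathione list, or 0.65 and 0.06 scaled. Prdx3 averaged 44.2 ± 5.97 TPM in knockdown and 127 ± 8.57 TPM in control at 36 h (-1.50, adjusted p = 0.0629), and 38.6 ± 21.0 TPM in knockdown and 105 ± 6.11 TPM in control at 0 h (-1.61, adjusted p = 0.0172). Leaving out any 1 of the 3 control 0 h libraries ended the 0 h call. Of 12 other NADPH genes, measured as 13 rows, 0 were called at either time, and scaled by median of ratios 3 were called higher at 36 h and 2 at 0 h.

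Among the genes called higher in these lists, detoxifying enzymes had the highest fold changes at 36 h, and Gsta1 had the highest at 0 h. At 0 h Sod1 (1.37), of the superoxide enzymes, stood above Aldh3a1 (1.19). Of 17 detoxifying genes tested, 3 were called higher at 36 h and 2 at 0 h and none lower, and 5 at 36 h and 7 at 0 h were called higher once scaled by median of ratios. Of all genes, 0.894% were called higher at 36 h and 3.10% at 0 h, and 2.50% and 8.66% with that scaling. Gsta1 and Gsta2, glutathione transferases, use the glutathione that the ligase makes. Gsta1 averaged 136 ± 22.0 TPM in knockdown and 24.1 ± 3.18 TPM in control at 36 h (2.44, adjusted p = 0.00954), and 147 ± 70.6 TPM in knockdown and 29.6 ± 2.46 TPM in control at 0 h (2.13, adjusted p = 0.00415, limma). Gsta2 averaged 19.0 ± 0.157 TPM in knockdown and 5.73 ± 0.416 TPM in control at 36 h (1.57, adjusted p = 0.0294), a call that 8 of the 12 fits without a library lost. The 36 h call of Gsta1 ended without knockdown 36 h library 2 or control 36 h library 1 or 4. Gsta1 and Gsta2 are nearly identical, so how reads were split between them is uncertain. Aldh3a1, an aldehyde dehydrogenase, averaged 2269 ± 242 TPM in knockdown and 399 ± 38.2 TPM in control at 36 h (2.50, adjusted p = 0.00446), which all 12 fits without a library kept and the replicate block ended (adjusted p = 0.0519). It averaged 644 ± 275 TPM in knockdown and 263 ± 35.5 TPM in control at 0 h (1.19, adjusted p = 0.0237), and over time in knockdown it was higher at 36 h than at 0 h (1.92, adjusted p = 0.0113), though not without any 1 knockdown 36 h library. Leaving out knockdown 0 h library 1 or any 1 control 0 h library ended its 0 h call.

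Of 8 heme and iron genes, Blvrb, a biliverdin reductase that acts on heme breakdown products and flavins, was called higher at both times. It averaged 105 ± 5.99 TPM in knockdown and 61.9 ± 2.09 TPM in control at 36 h (0.75, adjusted p = 0.0340, limma), and 93.4 ± 6.62 TPM in knockdown and 55.1 ± 1.81 TPM in control at 0 h (0.75, adjusted p = 0.0115). The 36 h call was lost in 9 of the 12 fits without a library, and the 0 h call in none. Ftl1, the ferritin light chain, was called higher at 0 h (16849 ± 5375 TPM in knockdown and 9603 ± 1123 TPM in control, 0.77, adjusted p = 0.0253), and it has near copies among which reads could be split. That call ended without control 0 h library 1 or 2. Of 4 superoxide and peroxide enzymes, at 0 h Sod1 was called higher (452 ± 284 TPM in knockdown and 154 ± 10.4 TPM in control, 1.37, adjusted p = 0.0208) and Sod3 lower (71.8 ± 40.0 TPM in knockdown and 162 ± 22.0 TPM in control, -1.36, adjusted p = 0.0360). The highest Sod1 level of that group, 777 TPM, was that of knockdown 0 h library 2. Both calls ended without any 1 control 0 h library.

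ATF4, the transcription factor of amino acid stress, also drives Slc7a11, and its other targets are listed here. Whether ATF4 has a part in the Slc7a11 levels was not tested. Of 13 measured rows of ATF4 response genes, 0 were called at 36 h, and at 0 h 3 were called lower and none higher, where 14.6% of all genes were called lower and 3.10% higher. Atf3 averaged 7.76 ± 6.92 TPM in knockdown and 40.2 ± 4.78 TPM in control (-2.62, adjusted p = 0.0131, limma). Psat1, of serine synthesis, averaged 31.9 ± 4.13 TPM in knockdown and 53.8 ± 3.10 TPM in control (-0.74, adjusted p = 0.0157), and Trib3 averaged 19.4 ± 10.5 TPM in knockdown and 49.2 ± 7.35 TPM in control (-1.46, adjusted p = 0.0224). With median-of-ratios scaling Psat1 was not called (-0.23, adjusted p = 0.364), Atf3 and Trib3 were, and 1 gene was called higher. The Trib3 call ended without any 1 control 0 h library, and that of Psat1 without control 0 h library 1 or 3. Psat1 was called over time in knockdown (70.4 ± 4.24 TPM at 36 h, 1.12, adjusted p = 0.00890), but not with that scaling or without knockdown 36 h library 1 or 2. Of 9 other autophagy receptors and LC3 genes, set beside Sqstm1, Tax1bp1 was called lower at 0 h (112 ± 51.0 TPM in knockdown and 232 ± 26.3 TPM in control, -1.14, adjusted p = 0.0246), a call that ended without any 1 of the control 0 h libraries. The median log2 fold change at 0 h was -0.90 for the ATF4 rows and -0.42 for the autophagy genes, against -0.41 over all genes.

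**Figure D4:**
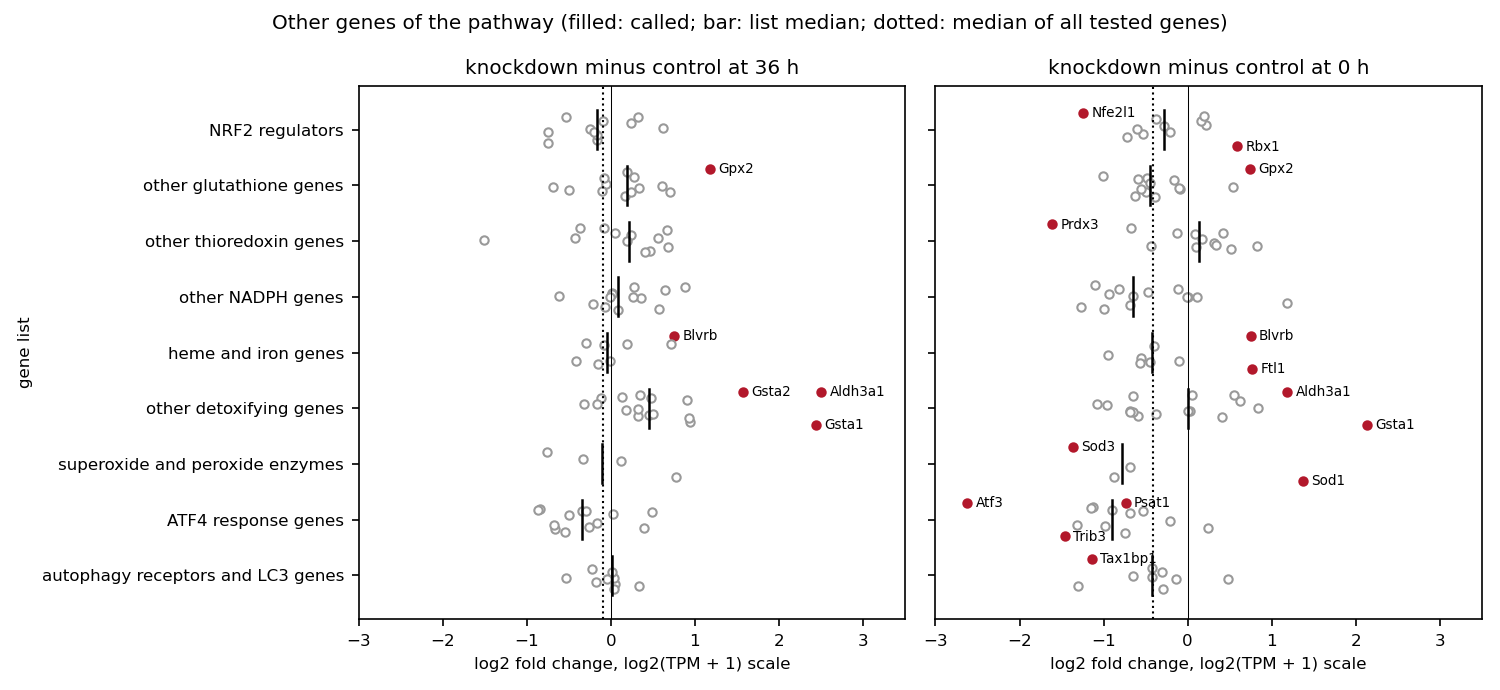
Log2 fold change, knockdown minus control, of other genes of the pathway at 36 h (left) and 0 h (right) on the log2(TPM + 1) scale, 1 circle per gene and 1 row per list. Filled circles with names were called, bars mark list medians and the dotted line the median of all tested genes. Gpx2, Blvrb, Gsta1 and Aldh3a1 are called higher in both panels, and the calls to the left of 0 all fall at 0 h.

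Finally, the profiles nearest to 3 members were sought over the 12 libraries as the smallest root mean square difference between centred log2(TPM + 1) values, among tested genes averaging 5 TPM or more. For Slc7a11, whose own SD was 0.81, these were Bst2 (0.29), Abhd3 (0.32) and Snx25 (0.33). For Txnrd1 (own SD 0.65) they were Ap1b1 (0.12), Slc44a1 and Chpf2 (0.13 each), and for Pgd (own SD 0.56) Efna4, Slc39a14 and Rnf168 (0.12 each). Bst2 averaged 170 TPM in knockdown and 59.5 TPM in control at 36 h, and 204 TPM in knockdown and 53.3 TPM in control at 0 h. Ap1b1, like Txnrd1, was lowest in the 0 h knockdown group, at 77.4 TPM in knockdown and 66.6 TPM in control at 36 h, and 45.5 TPM in knockdown and 66.1 TPM in control at 0 h. Efna4, like Pgd, was lower in knockdown at both times, with 13.6 TPM in knockdown and 19.9 TPM in control at 36 h, and 9.37 TPM in knockdown and 17.2 TPM in control at 0 h. The 12 points share the 4 groups and the scale of knockdown 0 h library 2, so the likeness is a description.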

How the data were processed

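Gene-level TPM values from the authors for 57180 genes were used as deposited, with their gene symbols. Per the submitters' processing notes, HISAT2 2.2.1, HTSeq, DESeq2, FastQC and cutadapt 1.9.1 were used with build GRCm39. Their roles are not stated, and which made the TPM is not given in the sources used here. The gene lengths and group means deposited by the authors were not used as measurements: their control 36 h mean covers libraries 1 and 3 only, and a further column repeats library 4. TPM keeps no depth, so library depth is unknown and no counting interval is given. No coordinates of the files were used.

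All 12 libraries were fitted with limma 3.58.1 in R 4.3.3 on log2(TPM + 1), with 1 mean per group and a variance trend, after a filter of at least 1 TPM in at least 3 libraries. The spread of each gene was estimated over all 4 groups together. The SE and p-values at 36 h therefore also carry the spread of the 0 h libraries, except where only the groups compared were fitted. P-values are two-sided and adjusted within each comparison over its 14426 genes (Benjamini-Hochberg), and genes under 0.05 were called. The procedure was tested on simulated data with known changes. Exact permutation tests used 3 libraries against 3.

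The 10 members, the lists and the 12 ratio comparisons were chosen with earlier results of these data known. Named genes are the members, Snai1, Nfe2l2, Keap1 and Bach1, up to 3 called genes per list and comparison, and the 3 nearest profiles of Slc7a11, Txnrd1 and Pgd. There were 25 alternatives: quantile normalization, median-of-ratios scaling, a 5 TPM filter, no filter, pseudocount 0.1, mitochondrial genes removed, robust variance, no trend, only the groups compared, a replicate block, unscaled and scaled by median of ratios, each of the 12 libraries left out, knockdown 0 h library 2 left out with median-of-ratios scaling, and knockdown 0 h library 2 left out with control 36 h library 4. Overlap of the groups was also counted on scaled TPM for the 10 members only, a check chosen after seeing the data. Promoter windows came from RefSeq on GRCm38.p6.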

Additional observations from a re-analysis of the deposited data

How the results depend on the processing

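At 0 h the count of members called, 3 with the settings used, was 6 with median-of-ratios scaling, 5 with quantile normalization, 0 with only the groups compared, 6 without knockdown 0 h library 2 under median-of-ratios scaling, 5 without that library and control 36 h library 4, and 2 to 6 with 1 library left out. Over all genes the 0 h count was 2550 with the settings used, 2718 with median-of-ratios scaling and 2676 with quantile normalization. It was 16 with only the groups compared, and 747 to 5853 with 1 library left out. The further fits without knockdown 0 h library 2 called 3256 and 2818 genes. At 36 h, where 1 member was called, it was 0 with a pseudocount of 0.1, with no filter or with the replicate block, 4 with median-of-ratios scaling, 3 with quantile normalization or without mitochondrial genes, 6 with only the groups compared, 5 in either fit that dropped knockdown 0 h library 2 with a further change, and 0 to 5 with 1 library left out. Over all genes the 36 h count was 365 with the settings used, 251 with that pseudocount, 192 of 35924 with no filter and 5 with the block. It was 857 with median-of-ratios scaling, 933 with quantile normalization, 454 of 14515 without mitochondrial genes and 2176 with only the groups compared. The fits with a further change called 2741 and 1439, and those with 1 library left out 24 to 2683. Over time in control, where 0 members were called, it was 1 with median-of-ratios scaling, quantile normalization, only the groups compared and both further fits without knockdown 0 h library 2, and 0 to 1 with 1 library left out. Over all genes 52 were called with the settings used, 88 with that scaling, 111 with quantile normalization and 247 with only the groups compared. The further fits called 390 and 159, and those with 1 library left out 17 to 397. Over time in knockdown, where 1 member was called, it was 0 with a pseudocount of 0.1, no filter, no variance trend, only the groups compared and the replicate block alone or with scaling, 2 in both further fits without knockdown 0 h library 2, and 0 to 3 with 1 library left out. Over all genes 162 were called with the settings used, 136 with that pseudocount, 117 of 35924 with no filter and 155 with no trend. It was 18 with only the groups compared, and 40 and 51 with the block, unscaled and scaled. The further fits called 411 and 255, and those with 1 library left out 47 to 1541. The interaction called 0 members with every library left out in turn. The cause of these shifts was not tested.

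Values not called with the settings used changed sign at 0 h for Srxn1 (0.14 with median-of-ratios scaling, with or without the block, 0.12 with quantile normalization, 0.62 and 0.42 in the further fits without knockdown 0 h library 2, -0.79 to 0.42 with 1 library left out), Prdx1 (0.45 with that scaling, with or without the block, 0.41 and 0.20 in the further fits, -0.26 to 0.20), Txnrd1 (0.10) and Nqo1 (0.086), the last 2 without library 2 and scaled. At 36 h they did so for Nqo1 with the replicate block (0.011, and 0.0087 with scaling) and for Txnrd1 (-0.013 to 0.38 with 1 library left out). The reversed 0 h value of Srxn1 became a call without knockdown 0 h library 2 (0.42, limma adjusted p = 0.0459), also with scaling (0.62, adjusted p = 0.00226). Whether the replicate numbers pair the samples is not settled. Deviations of same-numbered libraries from their group means correlated at -0.287 to 0.132, with 2 of 15 pairs over 0.1. Those of differently numbered libraries correlated at -0.238 to 0.255. With 3 libraries a group such a check cannot exclude pairing. With the block, 1011 genes were called at 0 h, against 2550 without it, and 5 at 36 h, against 365.

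Over all genes, median-of-ratios scaling changed the share of called genes that were higher from 17.5% to 46.0% at 0 h and from 88.9% to 73.3% over time in knockdown. At 36 h 857 genes were called with it and 2683 without knockdown 0 h library 2. With only the groups compared 16 genes were called at 0 h and 2176 at 36 h. Only 3 libraries a group, without known depth, limit the precision.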
